A study of Mus musculus with 12 samples.

Results

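The period and cryptochrome genes of the mouse retina are Per1, Per2, Per3, Cry1 and Cry2, and they were chosen by name, as the genes whose Ensembl identifier maps to these symbols. They are 5 of the 54532 genes in the deposited tables, and each of them passed the filter on low counts that left 18299 genes for testing. Retinas came from wild type C57BL/6 females aged 13 weeks in 4 groups of 3 libraries, 12 libraries in all. SHAM mice were the sham controls of the study. MOG mice were immunized with the MOG peptide in complete Freund's adjuvant followed by pertussis toxin, a model of multiple sclerosis that includes optic neuritis. GB20 and GV16 mice were immunized in the same way and later needled repeatedly at the acupoint GB20 or at GV16, the control site, under xylazine and ketamine anesthesia. What the SHAM mice received, and whether SHAM and MOG mice were anesthetized, is not given in the sources used here. The clock time and the light schedule at dissection are also not given in the sources used here, so the levels cannot be placed on a time of day. Differences between groups therefore cannot be told apart from differences in dissection time, or in anesthesia between needled and other mice.

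The circadian clock is a feedback loop of transcription. CLOCK and BMAL1 (the product of Arntl) bind E-box sequences in promoters and drive the period and cryptochrome genes, whose proteins enter the nucleus together and repress CLOCK and BMAL1 until they are degraded. The mammalian retina holds such a clock of its own, and it times processes such as dopamine release and the daily adjustment of photoreceptors. Per1 and Per2 also respond to acute signals, including light, cAMP and glucocorticoids. Per3 is closely related to them but is largely dispensable for the core rhythm. CRY1 is the stronger and CRY2 the weaker repressor of the pair, and neither acts as a light sensor in the mouse.

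The promoters are shown as background, since the factors that drive these genes bind short sequences in promoters. That of Per2 is missing, because the promoter source did not hold it. Each line holds the 250 bases before a start site in the RefSeq annotation of GRCm38.p6, written 5′ to 3′ on the strand of the gene. Capitals mark the E-box CACGTG, its variant CACGTT on either strand (read as AACGTG on the other), and the D-box TTATGTAA, to which DBP, TEF and HLF bind. TTACGTAA, a variant of the D-box, and the cAMP response element TGACGTCA were searched as well on both strands and had 0 matches. No searched motif overlapped another one.
Per1, chr11:69098699-69098948, plus strand: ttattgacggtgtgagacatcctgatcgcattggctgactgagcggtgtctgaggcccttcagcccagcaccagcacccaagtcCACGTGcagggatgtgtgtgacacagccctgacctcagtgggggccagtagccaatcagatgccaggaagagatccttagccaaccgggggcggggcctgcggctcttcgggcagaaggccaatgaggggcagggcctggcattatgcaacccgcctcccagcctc
Cry1, chr10:85185055-85185304, minus strand: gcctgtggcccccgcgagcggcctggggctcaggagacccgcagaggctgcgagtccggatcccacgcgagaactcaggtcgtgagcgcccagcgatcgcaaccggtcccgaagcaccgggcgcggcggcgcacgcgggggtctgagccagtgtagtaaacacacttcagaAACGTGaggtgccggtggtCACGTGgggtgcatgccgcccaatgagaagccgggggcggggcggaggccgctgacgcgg
Cry2, chr2:92434070-92434319, minus strand: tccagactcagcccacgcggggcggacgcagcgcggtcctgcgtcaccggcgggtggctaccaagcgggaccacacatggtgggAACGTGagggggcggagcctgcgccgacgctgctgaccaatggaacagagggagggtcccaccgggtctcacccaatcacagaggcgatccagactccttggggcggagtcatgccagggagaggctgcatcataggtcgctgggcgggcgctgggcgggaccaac
Per3, chr4:151044666-151044915, minus strand: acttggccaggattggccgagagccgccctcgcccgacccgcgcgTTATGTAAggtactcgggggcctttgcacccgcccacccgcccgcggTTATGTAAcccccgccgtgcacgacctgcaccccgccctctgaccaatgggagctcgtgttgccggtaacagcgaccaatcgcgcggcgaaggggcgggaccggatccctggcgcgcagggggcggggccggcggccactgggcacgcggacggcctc
The E-box of Per1 began 166 bases before the start site, and that of Cry1 began 60 bases before it. Cry1 also held the variant 79 bases before the start, and Cry2 held the variant 166 bases before the start. Per3 held 2 D-boxes, 205 and 158 bases before the start, and no E-box of either form. Per1 has another annotated start, and its window (chr11:69099902-69100151) held none of the 5 motifs. Among 32851 such windows of 27025 genes, 6.02% held the E-box, 3.85% its variant and 0.82% the D-box, while 0.018% held at least 2 D-boxes. These matches describe letters in a short window, and whether any factor bound there was not measured.

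On GRCm38, Per1 (ENSMUSG00000020893) lies on chromosome 11 from 69095217 to 69109960 on the plus strand. The other members lie on minus strands, with Per2 (ENSMUSG00000055866) on chromosome 1 from 91415982 to 91459324, Per3 (ENSMUSG00000028957) on chromosome 4 from 151003652 to 151044665, and Cry1 (ENSMUSG00000020038) on chromosome 10 from 85131700 to 85185064. Cry2 (ENSMUSG00000068742) lies on chromosome 2 from 92403646 to 92434043. All 5 are protein-coding. In GENCODE vM21, 4.67% of the exon sequence of Cry2 overlaps D930015M05Rik on the opposite strand, where reads cannot be assigned to either gene unless the counting used strand, which is not given in the sources used here. The exons of the other 4 members overlap no other gene.

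Total counts per library ranged from 15860278 to 19194280. At this depth Per2 had 489 to 887 counts per library, Cry1 866 to 1246, Per1 1484 to 2625, Cry2 1905 to 2441 and Per3 2545 to 3391, so every member was well above the counting floor. The labelled tissue was checked with markers. Summed over 5 rod markers, the level was 9395 to 10750 FPKM in the 12 libraries, a deposited unit that scales fragments by gene length and library size. The 3 T cell markers (Cd3e, Cd4, Cd8a) each had a mean FPKM under 1 over the 12 libraries, and so did 3 of 5 pigment epithelium markers. The 4 lens markers had such means too, but their sum reached 6.66 FPKM in SHAM replicate 2 and 3.67 in GB20 replicate 2. It was 0.134 to 0.508 for MOG and at most 0.904 for GV16, and its part in the results was not tested. SHAM replicate 2 was also least like its group, with a chi-square per gene between library counts of 10.8 against SHAM replicate 1 and 15 against replicate 3. Pairs within the other groups had 2.87 to 6.35. The summed level of the 4 ganglion cell markers (Pou4f1, Rbpms, Nefl, Sncg), all of them down-regulated in MOG vs. SHAM, was 160 to 190 FPKM for SHAM against 88.0 to 99.3 for MOG, with 114 to 121 for GB20 and 84.0 to 124 for GV16. In whole retina, fewer cells of a type and less RNA per cell cannot be told apart. A library may hold retinas of several mice, and p-values measure only the spread between these libraries.

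Levels of the members were compared with each other on the FPKM scale, which accounts for gene length. Per1 had 18.8, 21.6 and 20.7 FPKM in the SHAM libraries. It had 14.7, 17.1 and 19.7 in the MOG libraries, with 23.1, 28.2 and 23.1 for GB20 and 18.4, 22.4 and 20.02 for GV16. Per2, the least abundant member, had 5.50, 6.92 and 7.53 FPKM for SHAM against 4.66, 5.60 and 5.07 for MOG, with 7.70, 8.72 and 8.45 for GB20 and 8.71, 6.78 and 8.11 for GV16. The lowest Per1 value came from MOG, and all GB20 libraries lay above all others. For Per2, each needled library lay above each MOG library.

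Per3 had 15.9, 15.4 and 18.2 FPKM for SHAM against 15.9, 18.2 and 17.4 for MOG, with 17.9, 18.01 and 20.1 for GB20 and 17.2, 17.8 and 19.7 for GV16. These ranges overlapped between all 4 groups. Cry1 had 16.7, 18.4 and 17.7 FPKM for SHAM against 15.9, 15.7 and 15.9 for MOG, with 19.0, 21.8 and 22.1 for GB20 and 20.8, 21.1 and 19.8 for GV16. The MOG libraries were nearly identical for Cry1 and lay below every other library. Cry2 had 20.03, 21.0 and 21.2 FPKM for SHAM against 18.7, 18.7 and 18.2 for MOG, with 19.2, 22.8 and 20.3 for GB20 and 21.3, 19.2 and 18.8 for GV16. Its MOG values lay below all others too, although the lowest GV16 library was only just above them.

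In SHAM retinas the order of mean FPKM was Cry2 (20.7 ± 0.627, SD, n = 3), Per1 (20.4 ± 1.44), Cry1 (17.6 ± 0.881), Per3 (16.5 ± 1.50) and Per2 (6.65 ± 1.04). Cry2 overlapped with Per1, and Cry1 with Per3, while Per1 lay apart from Cry1. Per2 was apart from and below its neighbor in all 4 groups. In MOG the other 4 members overlapped with their neighbors, from Cry2 (18.5 ± 0.267) through Per1 (17.2 ± 2.52) and Per3 (17.2 ± 1.14) to Cry1 (15.864 ± 0.10004), with Per2 at 5.11 ± 0.473. In GB20, Per1 (24.8 ± 2.93) was apart from and above the overlapping Cry1 (21.0 ± 1.74), Cry2 (20.8 ± 1.83) and Per3 (18.7 ± 1.21), and Per2 reached 8.29 ± 0.530. The GV16 order was Cry1 (20.6 ± 0.667), Per1 (20.3 ± 2.04), Cry2 (19.8 ± 1.34), Per3 (18.2 ± 1.30) and Per2 (7.87 ± 0.988), and only the step to Per2 was free of overlap.

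**Figure D1:**
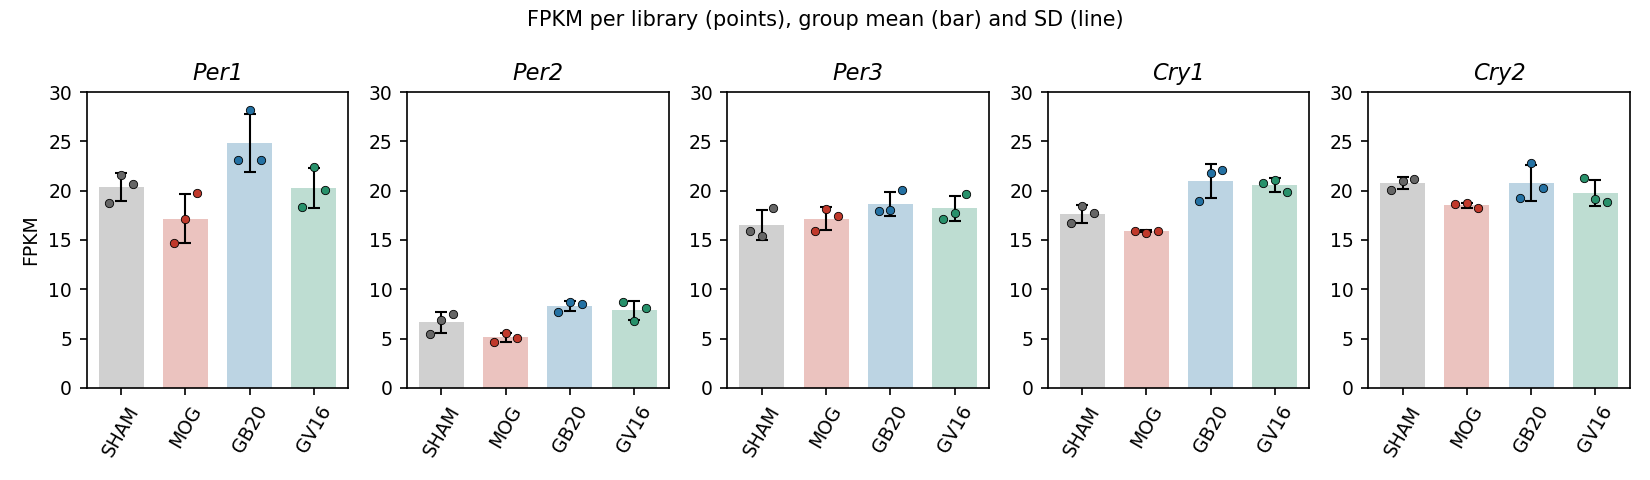
FPKM (y axis) of each of the 5 genes in the SHAM, MOG, GB20 and GV16 groups. Points are libraries, bars are group means and lines are SD (n = 3). For Per2 every GB20 and GV16 library lies above every MOG library, whereas Per3 overlaps between all groups.

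MOG vs. SHAM compared these genes between retinas of immunized mice and of sham controls. None of the 5 members was a differentially expressed gene (DEG), here a gene with a Benjamini-Hochberg adjusted p under 0.05 over all 18299 genes by the quasi-likelihood test of edgeR. The share of all genes called was 1.34% (0.568% up and 0.771% down), and DESeq2 and limma-voom also called 0 members. At an unadjusted p under 0.05 all members but Per3 passed, 4 of 5, against 13% of all genes. On the log2 scale Per2 differed by -0.38 (SE 0.11, edgeR adjusted p = 0.102), and Per1 had -0.25 (SE 0.104, adjusted p = 0.31). The 2 groups overlapped for both genes. Cry1 (-0.15, SE 0.0738, adjusted p = 0.376 by edgeR) and Cry2 (-0.17, SE 0.0725, adjusted p = 0.324) had small differences, and for both every MOG library lay below every SHAM library. Groups that did not overlap in this direction were found for 8.34% of all genes. Per3 differed least, with 0.051 (SE 0.0802, adjusted p = 0.825 by edgeR).

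Marker sums that did not overlap between MOG and SHAM were those of ganglion cells, given above, of Müller cells (737 to 789 FPKM for SHAM and 626 to 717 for MOG) and of pigment epithelium (6.20 to 10.2 and 13.2 to 16.6). The Müller cell sum hides a split, since 1 of its 3 markers was called higher in MOG by edgeR. The part of these markers in the result was not tested. The Per2 difference depended on the libraries and the fit. Without SHAM replicate 1, the SHAM library with the lowest Per2, it was -0.50 with an adjusted p of 0.0232 by edgeR, and Per2 also passed with no filter on low counts (adjusted p = 0.00385) or with a gene length trend in the fit (adjusted p = 0.0499).

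GB20 vs. MOG compared retinas of immunized mice needled at GB20 with those of immunized mice without needling. Per2, Per1 and Cry1 were upregulated, which makes 3 of the 5 members, while 0.24% of all genes were DEGs and 0.0984% (18 genes) were upregulated. Per2 rose 1.62-fold (95% interval 1.38 to 1.90), by 0.70 on the log2 scale (SE 0.11, edgeR adjusted p = 0.00407). Per1 rose 1.44-fold (1.24 to 1.68), by 0.53 on the log2 scale (SE 0.104, adjusted p = 0.0337 by edgeR). Cry1 rose 1.32-fold (1.19 to 1.47), by 0.40 on the log2 scale (SE 0.0734, adjusted p = 0.0153 by edgeR). Ordered by fold among the 18 upregulated genes, Per2 ranked 7, Per1 ranked 10 and Cry1 ranked 17.

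The other 2 members did not pass the test. Cry2 differed by 0.17 on the log2 scale (SE 0.0725, edgeR adjusted p = 0.57), with all GB20 libraries above all MOG libraries, and Per3 had 0.12 (SE 0.0801, adjusted p = 0.726 by edgeR) with overlapping groups. In all, 4 of 5 members had GB20 and MOG libraries that did not overlap, all higher in GB20, against 7.96% of all genes in that direction. Summed FPKM of the 4 cone markers was 441 to 457 in MOG and 499 to 520 in GB20, that of the 3 bipolar cell markers was 123 to 131 and 108 to 119, and that of the ganglion cell markers rose as given above. None of these marker sums overlapped between MOG and GB20, and their part in the result was not tested.

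Per2 was a DEG in GB20 vs. MOG whichever of the 12 libraries was left out, with log2 fold changes from 0.63 to 0.77. Per1 lost the call without SHAM replicate 3 (0.53), MOG replicate 1 (0.43) or 2 (0.53), or GB20 replicate 1 (0.58), 2 (0.43) or 3 (0.58), and also with a gene length trend (0.55, adjusted p = 0.0726 by edgeR). Cry1 lost it without MOG replicate 1, 2 or 3 (0.40 each), or GB20 replicate 2 (0.37) or 3 (0.36). With limma on log2(FPKM + 1), where fewer genes were called in all, the adjusted p was 0.0701 for Per2, 0.0667 for Cry1 and 0.162 for Per1.

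**Figure D2:**
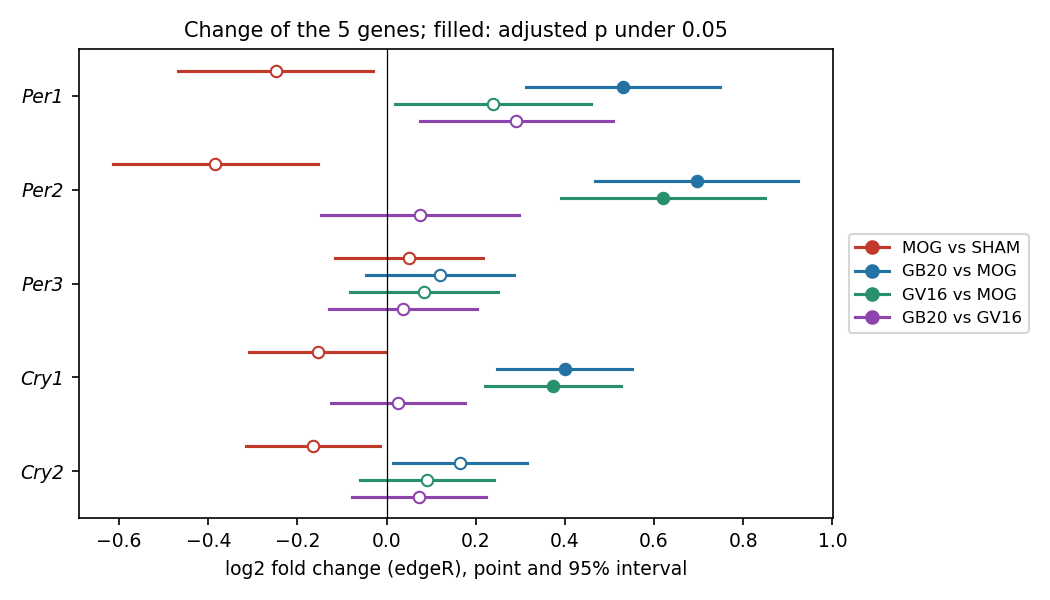
Log2 fold change by edgeR (x axis) of the 5 genes in 4 comparisons, with 95% intervals. Filled points have an adjusted p under 0.05. Filled points are found for Per1, Per2 and Cry1 in GB20 vs. MOG and for Per2 and Cry1 in GV16 vs. MOG, and the intervals of GB20 vs. GV16 include 0 except for Per1.

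GV16 vs. MOG made the same comparison for the control site, with the same MOG libraries as the baseline. Per2 and Cry1 were upregulated here, 2 of the 5 members, while 0.164% of all genes were DEGs and 0.0656% (12 genes) were upregulated. Per2 rose 1.54-fold (95% interval 1.31 to 1.80), by 0.62 on the log2 scale (SE 0.11, adjusted p = 0.017 by edgeR). Cry1 rose 1.30-fold (1.17 to 1.44), by 0.37 on the log2 scale (SE 0.0737, adjusted p = 0.0379 by edgeR). Among the 12 upregulated genes Per2 ranked 9 by fold and Cry1 ranked 12. Per1 differed by 0.24 on the log2 scale (SE 0.105, edgeR adjusted p = 0.907) with overlapping groups, since GV16 replicate 1 (18.4 FPKM) lay below MOG replicate 3 (19.7). Cry2 had 0.092 (SE 0.0727, adjusted p = 0.998 by edgeR) and Per3 had 0.083 (SE 0.0802, adjusted p = 0.998). For Per2, Cry1 and Cry2 all GV16 libraries lay above all MOG libraries, against 6.17% of all genes. The summed FPKM of the 3 Müller cell markers, 626 to 717 for MOG and 720 to 766 for GV16, did not overlap either. The sum hides a split, since 1 of these markers was called lower in GV16 by edgeR. The median log2 fold change of the 3 markers was -0.22, and their part in the result was not tested.

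Of the 12 fits that left out a library, 8 kept the call of Per2 and 3 that of Cry1. Per2 lost its call without MOG replicate 1 (0.56) or 3 (0.615) or GV16 replicate 1 (0.54) or 3 (0.60). Cry1 kept its call only without SHAM replicate 2 or 3 or GB20 replicate 1, and its log2 fold change lay between 0.35 and 0.40 over all these fits. With limma on log2(FPKM + 1) neither gene was called.

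**Figure D3:**
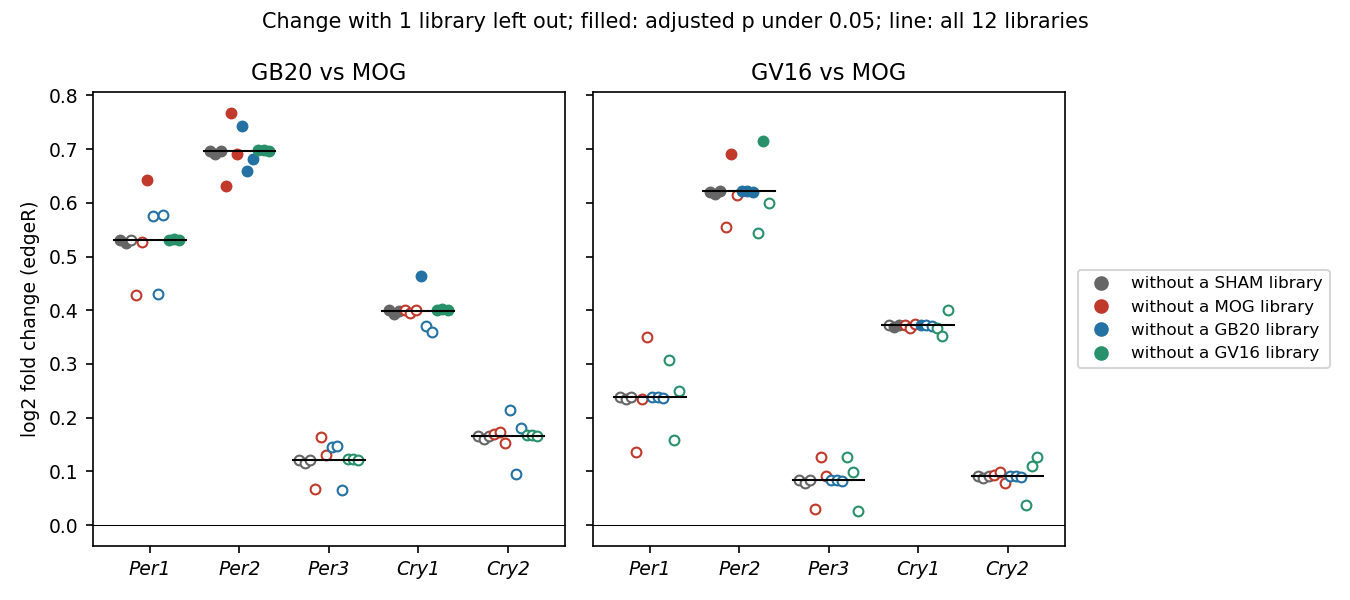
Log2 fold change by edgeR (y axis) of each gene when 1 of the 12 libraries is left out, for GB20 vs. MOG (left) and GV16 vs. MOG (right). Colors give the group of the library left out, filled points have an adjusted p under 0.05, and lines show the fit with all libraries. Per2 stays filled in all 12 fits of GB20 vs. MOG, while Cry1 is filled in 3 of 12 fits of GV16 vs. MOG.

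GB20 vs. GV16 tested directly whether the needled sites differed. None of the 5 members was a DEG, and across the genome 1 gene was (0.00546%, lower in GB20), by edgeR. DESeq2 and limma-voom also called 0 members. At an unadjusted p under 0.05 there was 1 member, Per1, against 2.93% of all genes. The log2 difference of Per1 was 0.29 (95% interval 0.074 to 0.51), and all GB20 libraries lay above all GV16 libraries, as was found for 4.03% of all genes. Thus Per1, a DEG against MOG at GB20 and not at GV16, was not shown to differ between the sites. For Per2 the difference was 0.075 (-0.15 to 0.30), for Per3 0.037 (-0.13 to 0.20), for Cry1 0.026 (-0.12 to 0.18) and for Cry2 0.073 (-0.077 to 0.22). A log2 difference above 0.30 in favor of GB20 lies outside each of these 4 intervals.

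The needled groups were also set against SHAM. In GB20 vs. SHAM, 0 of 5 members were DEGs by edgeR, DESeq2 or limma-voom, against 0.344% of all genes (0.164% up), and 4 (all but Cry2) passed at an unadjusted p under 0.05, against 9.06% of all genes. Per2 stood 0.31 higher on the log2 scale (edgeR adjusted p = 0.312), Per1 had 0.28 (adjusted p = 0.376), Cry1 had 0.24 (adjusted p = 0.181) and Per3 had 0.17 (adjusted p = 0.531). For Per1, Per2 and Cry1 every GB20 library lay above every SHAM library, against 5.66% of all genes. Cry2 was level with SHAM, at -0.00068, a value whose sign depended on the scaling. Libraries with the same replicate number were taken as paired in both comparisons with SHAM, by their correlation only. With the replicate number as a block over all 12 libraries, 182 instead of 63 genes were called in GB20 vs. SHAM. Of the members 0 were among them, with Per1 at 0.28 (adjusted p = 0.077 by edgeR) and Cry1 at 0.24 (adjusted p = 0.0904), although Per1 was called (0.29, adjusted p = 0.0407) once a gene length trend was added to the block. In GV16 vs. SHAM, 0 of 5 members were DEGs by any of these tools, against 0.656% of all genes, and Per2 and Cry1 passed at an unadjusted p under 0.05, against 10.9% of all genes. Cry1 (0.22, adjusted p = 0.224 by edgeR) was the member whose GV16 libraries all lay above SHAM, against 6.86% of all genes. Per2 had 0.24 (adjusted p = 0.421 by edgeR), Per3 0.13 (0.566) and Cry2 -0.074 (0.767). Per1 had -0.0097, with a sign that depended on the scaling. With the replicate block 236 instead of 120 genes were called in GV16 vs. SHAM and again 0 members, with Cry1 at 0.22 (adjusted p = 0.119 by edgeR).

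Ratios of Cry1 to Cry2 and of Per2 to Per3 within a library were computed after the levels had been seen. A ratio within a library is free of library scaling. The ratio of Cry1 to Cry2 was 0.834, 0.879 and 0.836 for SHAM against 0.854, 0.843 and 0.874 for MOG. It reached 0.985, 0.956 and 1.09 for GB20 and 0.977, 1.10 and 1.05 for GV16. The ranges of SHAM and MOG overlapped, and all 6 needled libraries lay above all 6 others. On the log2 scale the ratio differed by 0.24 in GB20 vs. MOG and by 0.28 in GV16 vs. MOG (both p = 0.1, 2-sided exact permutation test, n = 3 per group, Benjamini-Hochberg adjusted p = 0.12 over 6 tests). In MOG vs. SHAM it differed by 0.012 (exact permutation p = 0.6). With 3 libraries against 3, 0.1 is the smallest p this test can give, so the threshold could not be reached.

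The ratio of Per2 to Per3 was 0.346, 0.448 and 0.413 for SHAM against 0.293, 0.309 and 0.292 for MOG, with 0.429, 0.484 and 0.421 for GB20 and 0.508, 0.381 and 0.413 for GV16. Each MOG library lay below each library of the other groups. On the log2 scale MOG was lower than SHAM by a difference of -0.43, and GB20 and GV16 were higher than MOG by 0.58 and 0.53, each with the smallest possible exact permutation p of 0.1 (adjusted p = 0.12). Since these pairs of genes were picked for their difference, the ratios describe these libraries and add no independent evidence.

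**Figure D4:**
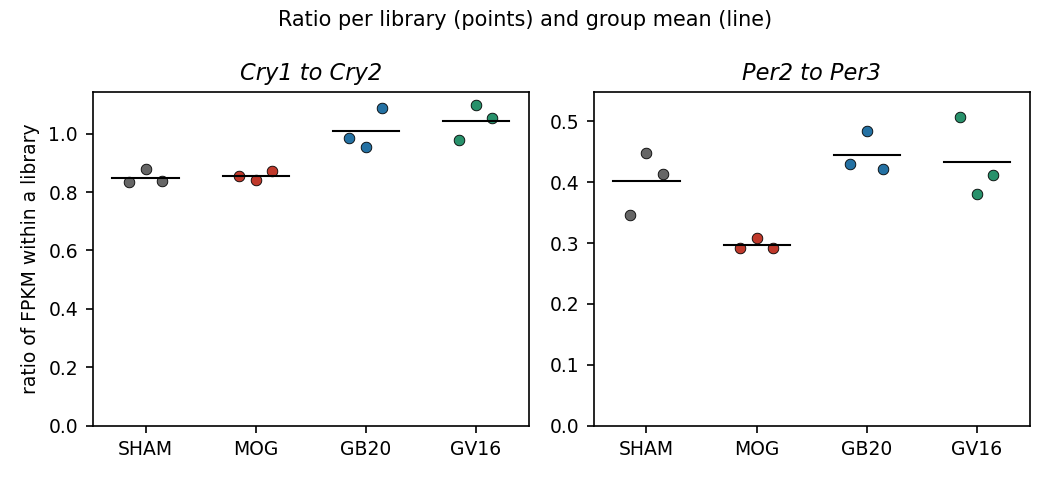
Ratio of FPKM within each library (y axis) for Cry1 to Cry2 (left) and Per2 to Per3 (right). Points are libraries and lines are group means (n = 3). The Cry1 to Cry2 ratio is 0.956 or higher in all needled libraries and 0.879 or lower in the others, and the Per2 to Per3 ratio is lowest in MOG.

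The rest of the clock was examined in a list of 15 genes, all of them tested. In MOG vs. SHAM 3 of the 15 were down-regulated, against 0.771% of all genes, and 0 were upregulated, against 0.568%. The list median was -0.054 on the log2 scale beside -0.0024 for all genes. The 3 down-regulated genes were Ciart, a repressor of CLOCK and BMAL1, Dbp, an output gene that carries the rhythm to D-boxes, and Bhlhe40, which competes for E-boxes. Ciart was at 6.97 to 7.89 FPKM for SHAM against 3.80 to 4.59 for MOG, with 8.25 to 10.7 for GB20 and 6.59 to 8.72 for GV16, so every MOG library lay below all others. It fell by 0.85 on the log2 scale in MOG vs. SHAM (SE 0.131, adjusted p = 0.00105 by edgeR). Dbp fell by 0.50 (SE 0.0721, adjusted p = 0.000434 by edgeR) and Bhlhe40 by 0.35 (SE 0.0819, adjusted p = 0.0313).

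In GB20 vs. MOG these 3 genes were the clock genes upregulated beside Per1, Per2 and Cry1, against 0.0984% of all genes. The list median was slightly negative at -0.036, opposite in sign to the genes called. Ciart rose by 1.16 (SE 0.13, adjusted p = 3.39e-05 by edgeR), Dbp by 0.43 (SE 0.0721, adjusted p = 0.00554) and Bhlhe40 by 0.39 (SE 0.0818, adjusted p = 0.0414). In GV16 vs. MOG only Ciart passed among the 15, at 0.79 (SE 0.132, adjusted p = 0.00731 by edgeR), with a list median of 0.024. Of all genes 0.0656% were upregulated there. Dbp was 28.5 to 29.99 FPKM for MOG, 36.6 to 43.5 for GB20 and 29.5 to 32.5 for GV16, against 40.05 to 43.0 for SHAM. Its GB20 libraries lay above all MOG and GV16 libraries. The direct test of GB20 vs. GV16 called none of the 15 genes by edgeR. At an unadjusted p under 0.05 there were 3 (Dbp, Bhlhe40 and Ciart), against 2.93% of all genes. DESeq2 on 12 libraries called 1 (Dbp), among 5 genes in all. In the edgeR test the log2 difference was 0.36 for Dbp (adjusted p = 0.305), 0.37 for Bhlhe40 (adjusted p = 0.659) and 0.36 for Ciart. A difference between the sites was thus not shown for Bhlhe40 and Ciart. For Dbp it was not shown by the main test and depended on the fit. Dbp was called in 2 of 12 other fits and in 1 of 12 fits that left out a library.

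Ciart and Dbp were called in all 12 fits that left out a library in MOG vs. SHAM, and Ciart also in GB20 vs. MOG. Dbp lost its call in GB20 vs. MOG without MOG replicate 2 (0.41) or GB20 replicate 2 (0.36), and Ciart lost it in GV16 vs. MOG without MOG replicate 1 (0.72) or GV16 replicate 2 (0.65). Bhlhe40 was less stable. In MOG vs. SHAM it lost its call without SHAM replicate 1 (-0.35) or 2 (-0.32), or MOG replicate 1 (-0.35), 2 (-0.30) or 3 (-0.39). In GB20 vs. MOG it lost it without SHAM replicate 1, MOG replicate 1, 2 or 3, GB20 replicate 2 or 3, or GV16 replicate 3, with values from 0.32 to 0.43. Bhlhe40 also lost the call in GB20 vs. MOG with limma-voom (adjusted p = 0.0523), in MOG vs. SHAM with edgeR on the 6 libraries compared (adjusted p = 0.056), and in both with limma on either log2 FPKM scale.

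By role, the 3 repressors that act at E-boxes (Ciart, Bhlhe40, Bhlhe41) held 2 of the 3 genes called in MOG vs. SHAM, with a median of -0.35, and 2 of the 3 in GB20 vs. MOG, with a median of 0.39. The PAR bZIP factors and Nfil3 (4 genes, with Dbp the one called) had medians of -0.18 and 0.22. None of the 4 genes of the activator arm (Arntl, Arntl2, Clock, Npas2) and none of the 4 nuclear receptors (Nr1d1, Nr1d2, Rora, Rorb) were called when MOG was set against SHAM or either needled group against MOG. The activator arm had medians of 0.23, -0.18 and -0.12 in these comparisons, all from genes that were not called. The repressor medians had the opposite sign, but in GV16 vs. MOG that median was only 0.090, and Ciart was the 1 repressor called there. In GV16 vs. SHAM, where 0.656% of all genes were called, Dbp (-0.43, adjusted p = 0.00407 by edgeR) and Nr1d1 (-0.36, adjusted p = 0.0334), which encodes a repressor of Arntl, were lower. Nr1d1 lost its call in 6 of 12 fits that left out a library, namely SHAM replicate 1 (-0.38) or 2 (-0.33), MOG replicate 2 or 3 (-0.36 each), and GV16 replicate 2 (-0.34) or 3 (-0.30). Nr1d1 also lost it with edgeR on the 6 libraries compared (adjusted p = 0.105) and with limma on either log2 FPKM scale. Dbp lost it without GV16 replicate 3 (-0.39). With the replicate block 3 of the 15 were called in GV16 vs. SHAM, Bhlhe40 beside Dbp and Nr1d1. In GB20 vs. SHAM none of the 15 passed by edgeR, DESeq2 or limma-voom, and 3 (Ciart, Nr1d1 and Tef) had an unadjusted p under 0.05, against 9.06% of all genes.

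**Figure D5:**
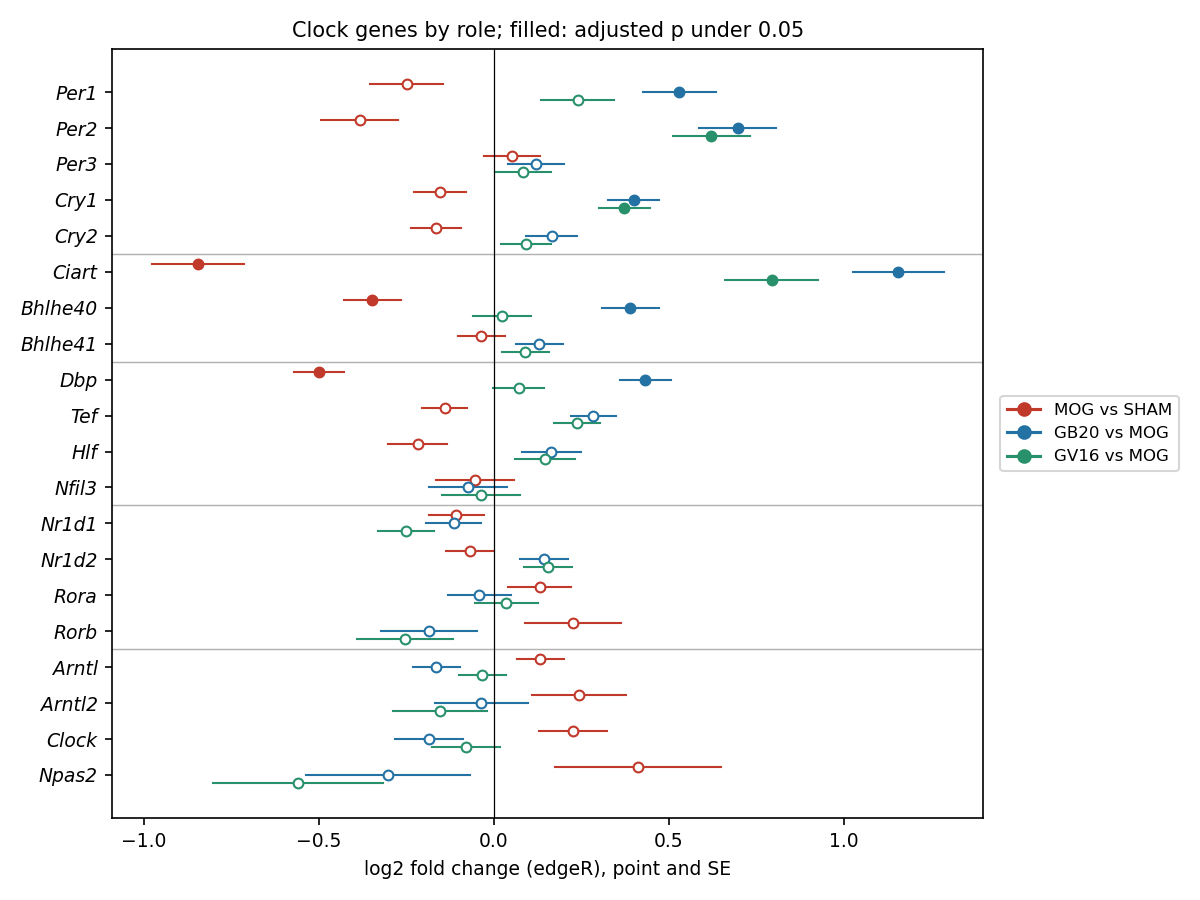
Log2 fold change by edgeR (x axis) with SE of the 5 period and cryptochrome genes and of 15 other clock genes in order of role, for MOG against SHAM and for each needled group against MOG. Filled points have an adjusted p under 0.05. Ciart, Dbp and Bhlhe40 are filled on the negative side in MOG vs. SHAM and on the positive side in GB20 vs. MOG, and no gene of the activator arm or the nuclear receptors is filled.

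PER and CRY proteins are controlled after translation by kinases such as casein kinase 1, by ubiquitin ligases and proteases, and by partner proteins. Among 16 such genes, 0 were called by edgeR in any of the 6 comparisons, where 0.00546% to 1.34% of all genes were called. At an unadjusted p under 0.05 there was 1 in each comparison but GB20 vs. GV16, which had 0. All genes passed this threshold at 13% in MOG vs. SHAM, 8% in GB20 vs. MOG, 5.3% in GV16 vs. MOG, 9.06% in GB20 vs. SHAM and 10.9% in GV16 vs. SHAM, so 1 of 16 is near or below the background. DESeq2 on the 6 libraries compared called 1 of them, the ubiquitin protease gene Usp2, in GB20 vs. MOG and in GB20 vs. SHAM, while DESeq2 on 12 libraries and limma-voom called 0. With the replicate block Usp2 was called in GB20 vs. SHAM as well (0.55, adjusted p = 0.0104 by edgeR).

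Input pathways to Per1 and Per2 were covered by 19 genes, of which 18 were tested. The share of all genes called by edgeR was 1.34% in MOG vs. SHAM, 0.24% in GB20 vs. MOG and 0.164% in GV16 vs. MOG. It was 0.00546% in GB20 vs. GV16, 0.344% in GB20 vs. SHAM and 0.656% in GV16 vs. SHAM. The 11 genes of cAMP and light input include the melanopsin gene Opn4 and the immediate-early genes Fos and Egr1. None of the 11 was called by edgeR in any comparison, which is near the background at these shares. DESeq2 on the 6 libraries compared called 1 of them (Sik1) in GV16 vs. SHAM. Glucocorticoid input and its targets had 7 tested genes, among them Tsc22d3, which encodes the glucocorticoid-induced leucine zipper protein. Tsc22d3 was lower in MOG vs. SHAM (-0.40, SE 0.084, adjusted p = 0.0131 by edgeR) and higher in GB20 vs. MOG (0.42, SE 0.0839, adjusted p = 0.029). The 7 genes as a list were not lower in MOG vs. SHAM, with a median of 0.020. Their median was 0.15 in GB20 vs. MOG and 0.078 in GV16 vs. MOG. Fkbp5, a co-chaperone of the glucocorticoid receptor, was higher in GV16 vs. MOG (0.66, SE 0.101, adjusted p = 0.00395 by edgeR) and in GV16 vs. SHAM (0.85, SE 0.102, adjusted p = 7.62e-05), in all fits that left out a library. With limma on log2(FPKM + 1) or log2(FPKM + 0.1) Fkbp5 was not called in GV16 vs. MOG (adjusted p = 0.125 and 0.149). In MOG vs. SHAM Fkbp5 was 0.20, opposite in sign to Tsc22d3, and not called (adjusted p = 0.4265 by edgeR). Zbtb16, a zinc finger transcription factor gene, was higher in GV16 vs. SHAM (1.13, SE 0.249, adjusted p = 0.0445 by edgeR), a call that held in 5 of 12 such fits. It failed when SHAM replicate 1 (1.18) or 2 (0.97) was left out, or MOG replicate 1 or 3 (1.13 each), or GV16 replicate 1 (1.06), 2 (1.13) or 3 (1.20), and also with limma-voom (adjusted p = 0.0509) or limma on either log2 FPKM scale. Tsc22d3 lost its call in MOG vs. SHAM without SHAM replicate 2 (-0.33) or MOG replicate 2 (-0.39) or 3 (-0.40), and in GB20 vs. MOG without any one of the MOG or GB20 libraries (0.40 to 0.45), and there also with limma on log2(FPKM + 1) (adjusted p = 0.0701) or log2(FPKM + 0.1) (0.0737). GB20 vs. GV16 and GB20 vs. SHAM had 0 calls by edgeR among the 18 genes, with 2 (Errfi1, Fkbp5) and 4 (Crem, Fkbp5, Opn4, Zbtb16) at an unadjusted p under 0.05, against 2.93% and 9.06% of all genes. DESeq2 on 12 libraries called 0 and 2 (Fkbp5, Zbtb16) there, and so did edgeR with the replicate block. Tsc22d3 was 0.29 in GV16 vs. MOG (adjusted p = 0.379 by edgeR), and Zbtb16 was 0.86 in GB20 vs. MOG (adjusted p = 0.307). Neither passed, although these needled libraries all lay above all MOG libraries. Fkbp5 was 0.21 in GB20 vs. MOG (adjusted p = 0.628 by edgeR), with overlapping groups. In GV16 vs. MOG, DESeq2 on 12 or 6 libraries and edgeR with the replicate block also called Zbtb16.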

How the data were processed

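Retinal RNA of 12 libraries, 3 per group, had been enriched for polyadenylated RNA and sequenced as paired reads. The authors aligned the reads with HISAT2 2.0.5 to mm10 (submitters' processing notes), counted them per gene with FeatureCounts, and deposited the raw whole-number counts. A deposited FPKM table was computed by the authors from the count and length of each gene. Annotation release and strand setting: not given in the sources used here. Counts ran from 15860278 to 19194280 per library.

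Group and replicate came from the sample labels. Gene names, coordinates and exon overlaps came from GENCODE vM21 on GRCm38 (54409 of 54532 identifiers). The main test was that of edgeR 4.0.16 (R 4.3.3) on counts, using its expression filter with the 4 groups (18299 genes), TMM scaling, 1 mean per group over 12 libraries (8 residual degrees of freedom), robust quasi-likelihood dispersion and Benjamini-Hochberg adjustment, with a threshold of 0.05 at any fold. The authors' methods name DESeq2, which was used here as an alternative (1.42.0), beside limma 3.58.1 on counts (voom) and on log2(FPKM + 1) or log2(FPKM + 0.1). A fold change on that log2 scale understates the change of low genes. Other alternatives were RLE and upper quartile scaling, no filter, 6 libraries, a replicate block, a gene length trend, and leaving out each library. The edgeR, DESeq2 and limma-voom fits were tested on simulated counts.

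Named genes were the 5 members, every called gene of the lists, up to 6 by adjusted p, and the 3 genes most like each member by Pearson r. Members and lists were chosen with earlier results of these data known, so they are described by counts and medians without a set test. Some genes of these pathways are not reported here. Promoter sequences came from RefSeq (GRCm38.p6) and held 4 of the 5 members, all but Per2. The authors' methods describe 3 repeats of the experiment, and the labels do not tie a replicate number to a repeat. Deviations from the group means of libraries with the same number correlated over 0.1 in all 3 pairs of GB20 vs. SHAM (0.171 to 0.457) and of GV16 vs. SHAM (0.146 to 0.219), which were taken as paired, and not in all pairs of the other comparisons. Ratios within a library were tested by exact permutation in Python 3.11.15 with scipy 1.17.1.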

Additional observations from a re-analysis of the deposited data

How the results depend on the processing

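Among the 5 members, Per1, Per2 and Cry1 (GB20 vs. MOG) and Per2 and Cry1 (GV16 vs. MOG) kept direction and call under RLE and upper quartile scaling, no filter, limma-voom, DESeq2 on 12 or 6 libraries and edgeR on 6 libraries. With limma on log2(FPKM + 1) or log2(FPKM + 0.1), 0 members were called in either comparison, and fewer genes were called in all (14 and 15 instead of 44 in GB20 vs. MOG, 6 and 5 instead of 30 in GV16 vs. MOG). The gene length trend left 2 members in GB20 vs. MOG, without Per1. In MOG vs. SHAM 1 member (Per2) was called with no filter and 1 (Per2) with the length trend, and in GB20 vs. SHAM 1 (Per1) with no filter. With no filter, total calls were 539 instead of 245 in MOG vs. SHAM, 140 instead of 44, 73 instead of 30, 8 instead of 1, 282 instead of 63 in GB20 vs. SHAM and 395 instead of 120 in GV16 vs. SHAM. On 6 libraries DESeq2 gave 126 and edgeR 118 in GB20 vs. MOG, and 57 and 48 in GV16 vs. MOG. The causes were not tested.

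Of the 15 other clock genes, limma on log2(FPKM + 1) called 1 in GB20 vs. MOG (Ciart), 0 in GV16 vs. MOG and 1 in GV16 vs. SHAM (Dbp), and on log2(FPKM + 0.1) it called 0 and 1 in the last pair. DESeq2 on 12 and on 6 libraries called 2 each in GV16 vs. MOG (Ciart, Tef) and 4 each in GB20 vs. MOG (Bhlhe40, Ciart, Dbp, Tef), and on 12 libraries it called 3 in GV16 vs. SHAM (Bhlhe40, Dbp, Nr1d1). In GB20 vs. GV16, no filter and DESeq2 on 12 libraries called 1 each (Dbp). In GV16 vs. SHAM 1 (Dbp) was called with edgeR on 6 libraries.

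Signs turned only for differences near 0. Cry2 in GB20 vs. SHAM was 0.0056 with RLE, 0.010 with upper quartile scaling, 0.0022 and 0.0035 with DESeq2 on 12 and 6 libraries and 0.0015 with the length trend. Per1 in GV16 vs. SHAM was 0.0015 with upper quartile scaling. Per3 in MOG vs. SHAM was -0.0023 with the length trend and -0.0021 with the length trend and the replicate block.

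Leaving out 1 library gave 0 to 1 members called in MOG vs. SHAM, 1 to 3 in GB20 vs. MOG, 0 to 2 in GV16 vs. MOG and 0 in the other comparisons. Of the other clock genes it gave 2 to 3, 1 to 4, 0 to 1, 0 to 1 (GB20 vs. GV16), 0 (GB20 vs. SHAM) and 0 to 2 (GV16 vs. SHAM). The ratio of the highest to the lowest mean FPKM among the members stayed between 2.9 and 3.059. Log2 fold changes that changed sign ranged from -0.012 to 0.091 for Cry1, -0.017 to 0.15 for Per2 and -0.016 to 0.095 for Per3 (GB20 vs. GV16), from -0.073 to 0.048 for Cry2 (GB20 vs. SHAM), from -0.093 to 0.057 for Per1 (GV16 vs. SHAM) and from -0.023 to 0.067 for Bhlhe40 (GV16 vs. MOG).

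Libraries with the same replicate number were taken as paired, by their correlation, in GB20 vs. SHAM and GV16 vs. SHAM and not in the other comparisons. This cut is not decisive, since SHAM replicate 1 had the same r of 0.171 with GB20 replicate 1 and GB20 replicate 3. Between GB20 and GV16, the r of libraries with the same number was only -0.113 to 0.0501. The block was fitted over all 12 libraries, MOG included. Of 18 pairs with the same number, 8 had a correlation of deviations over 0.1 (range -0.113 to 0.457), although 10 of 12 libraries were closest to another one of their own number. With the replicate block, calls over all genes were 404 in MOG vs. SHAM, 73 in GB20 vs. MOG, 47 in GV16 vs. MOG, 1 in GB20 vs. GV16, 182 in GB20 vs. SHAM and 236 in GV16 vs. SHAM. The members called were the same as without it (3 in GB20 vs. MOG, 2 in GV16 vs. MOG, 0 elsewhere), while 3 other clock genes were called in GV16 vs. SHAM and 4 in GB20 vs. MOG. With the replicate block and the length trend, 2 members (Per1, Per2) were called in MOG vs. SHAM and 1 (Per1) in GB20 vs. SHAM, and 2 other clock genes in GV16 vs. MOG and 3 in GV16 vs. SHAM.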

Other observations

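The genes whose level went most with each member were listed over the 12 libraries, as a description, from log2 CPM (TMM-scaled counts) of 12276 genes with a mean CPM of at least 5. The libraries share the group structure and their library size, so Pearson's r is also given after the group means were removed. All the genes named were picked for a high r in these same libraries, so a high r within groups is partly built in. Per1 went most with Klhdc8b (r = 0.949, and 0.886 without group means), Slc25a42 (0.946 and 0.939) and Erf (0.91 and 0.868). Per2 went with Atg13 (0.907 and 0.853), Cry1 (0.881 and 0.364) and Rps2-ps13 (0.867 and 0.561), the last a pseudogene whose counts are uncertain. Cry1 went with Car14, a carbonic anhydrase gene (0.937 and 0.644), Hist3h2a (0.933 and 0.717) and Rmdn3 (0.915 and 0.664). Per3 went with Capn7 (0.934 and 0.911), Lims1 (0.926 and 0.918) and Trp53bp1 (0.899 and 0.859), and Cry2 with Mnt (0.92 and 0.832), Rgs16 (0.912 and 0.923) and Syngr3 (0.903 and 0.848).

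Between the members themselves, r over the 12 libraries was 0.881 for Per2 and Cry1, 0.72 for Per1 and Cry1 and 0.692 for Per1 and Per2. It fell to 0.364, 0.387 and 0.166 once the group means were removed, so these genes went together mostly between groups. For Cry1 and Cry2 it was 0.549 and 0.582. Per3 and Cry2 showed -0.064 and -0.229.

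The biological coefficient of variation estimated by edgeR was 6.35% for Cry1, 6.42% for Cry2, 7.09% for Per3, 8.99% for Per1 and 9.1% for Per2, each below the median of 9.25% over all genes tested. The differential calls of Per1 and Per2 thus rested on a larger spread between libraries than that of Cry1.

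Usp2, which encodes a ubiquitin protease of PER1 and was picked from the list of regulators after its values were seen, had a log2 fold change of 0.52 in GB20 vs. MOG (SE 0.156, adjusted p = 0.424 by edgeR) with all GB20 libraries above all MOG libraries. It was called in 5 of 12 other fits, namely with no filter, with DESeq2 or edgeR on 6 libraries, with the replicate block and with the length trend and the block, and the adjusted p over these 12 fits ran from 1.1e-05 to 0.476.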
